A study of Bos taurus with 12 samples.

Results

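Autophagy delivers worn proteins and organelles to the lysosome, and 34 genes of this route are described here in the biceps brachii of 12 bulls. They are 20 autophagosome genes, 3 mitophagy genes and 11 lysosomal genes, out of 13662 genes measured. The 34 were given as a list of symbols, and each was found by matching the gene name, gene number, accession or description of the array's probes to its symbol, with the probe of highest mean over the 12 arrays standing for the gene. All 34 had a probe that passed the filter on dim signal, which asked for a signal well above background on at least 4 of 12 arrays. For CTSL, the naming of that probe is uncertain, as set out below. The signal was well above background on all 12 arrays for 33 of them, and on 7 arrays for ATG14.

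All animals were male and 18 to 20 months old, with 4 animals to a group, and each array holds the muscle RNA of a separate animal. Controls were untreated. The dexamethasone group received dexamethasone, a synthetic glucocorticoid, in the feed for 42 days at 0.75 mg per head. The combination group received clenbuterol, a beta-adrenergic agonist, in the feed for 28 days, at 2 mg per head in the first week, 4 mg in the second week and 6 mg afterwards, together with dexamethasone at 0.66 mg per head for 21 days. Besides clenbuterol, the treatments therefore differ in how much dexamethasone was fed and for how long. These 12 came from 24 animals (8 to a group) and were picked for the best RNA, so they are no random draw. The sources used here do not say how long before slaughter the last dose was given.

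In autophagy, a kinase complex around ULK1 starts a membrane sac, and a lipid kinase complex around BECN1 and PIK3C3 marks the membrane on which it grows. Conjugating enzymes of the ATG family then attach proteins of the LC3 and GABARAP family to the sac, where receptors such as SQSTM1 bind the cargo. Mitochondria are marked for this route by PINK1 or by the membrane receptors BNIP3 and BNIP3L. The closed sac fuses with a lysosome, whose membrane is lined by LAMP proteins and whose cathepsins digest the content. Glucocorticoids and fasting are known to act on this route in skeletal muscle, in part through FOXO transcription factors.

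Levels are log2 signals relative to each array's 75th percentile, so a difference of 1 is a doubling of signal, and levels of different genes are not compared because they come from different probes. The muscle label was borne out by 13 of 14 muscle fibre markers, each well above background on all 12 arrays, with array means between 6.80 and 7.68. Between 53.2% and 68.7% of an array's spots had a signal well above background. Precision is limited by the number of arrays. Of 8 genes known to be induced by glucocorticoids, such as FKBP5 and PER1, all 8 lay below control in the dexamethasone group, and limma called 4 of them lower. Macrophage markers averaged lower in the treated groups, though limma called 1 of 13 measured markers with dexamethasone and 0 with the combination. The mean of the 13 lay between -2.02 and -1.52 in the controls and between -3.02 and -2.07 in the combination group. In dexamethasone replicates 1 to 4 it was -1.32, -3.78, -4.08 and -3.29. The value of replicate 3 lies under the lowest signal well above background on its array (-3.88). Dexamethasone replicate 1 thus stood apart from the other animals of its group in these markers, and values without it are given beside the changes that it moved most. Scan day is a batch: 1 control, 3 dexamethasone and 3 combination arrays were scanned on day 2, and the other 5 on 3 other days. No other day held more than 1 group, so a fit with scan day as a block compares the groups within day 2 alone.

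No autophagy or lysosome gene of the 34 passed the test for a difference between groups, and the largest differences, in GABARAPL1 and PINK1, were just under 2-fold. By limma with Benjamini-Hochberg adjustment over all 13662 genes, 0 of the 34 were called at an adjusted p under 0.05 in any of the 3 comparisons. Over all genes, 0.615% were called in dexamethasone against control, 0.0439% in the combination against control and 0.0146% in the combination against dexamethasone. At an unadjusted p under 0.05, limma counted 4 of 34 genes in dexamethasone against control (3 higher, 1 lower), where 12.3% of all genes passed. It counted 3 in the combination against control (1 higher, 2 lower), where 12.1% of all genes passed, and 2 in the combination against dexamethasone (both lower), where 11% did. These were 11.8%, 8.82% and 5.88% of the 34, each below the share of all genes. The median log2 change of the 34 genes was 0.06, 0.01 and -0.03 in the 3 comparisons, beside 0.03, 0.03 and 0.02 for all genes. A p that misses the threshold does not show that levels were equal, so the intervals are given: in each comparison the 95% interval of 28 of 34 genes (82.4%) lay within a log2 change of 1 either way, beside 69.2%, 69.1% and 70.0% of all genes. The comparisons share groups, so their values are set side by side and not as independent results. In whole muscle, fewer cells of a type and less RNA per cell cannot be told apart.

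**Figure D1:**
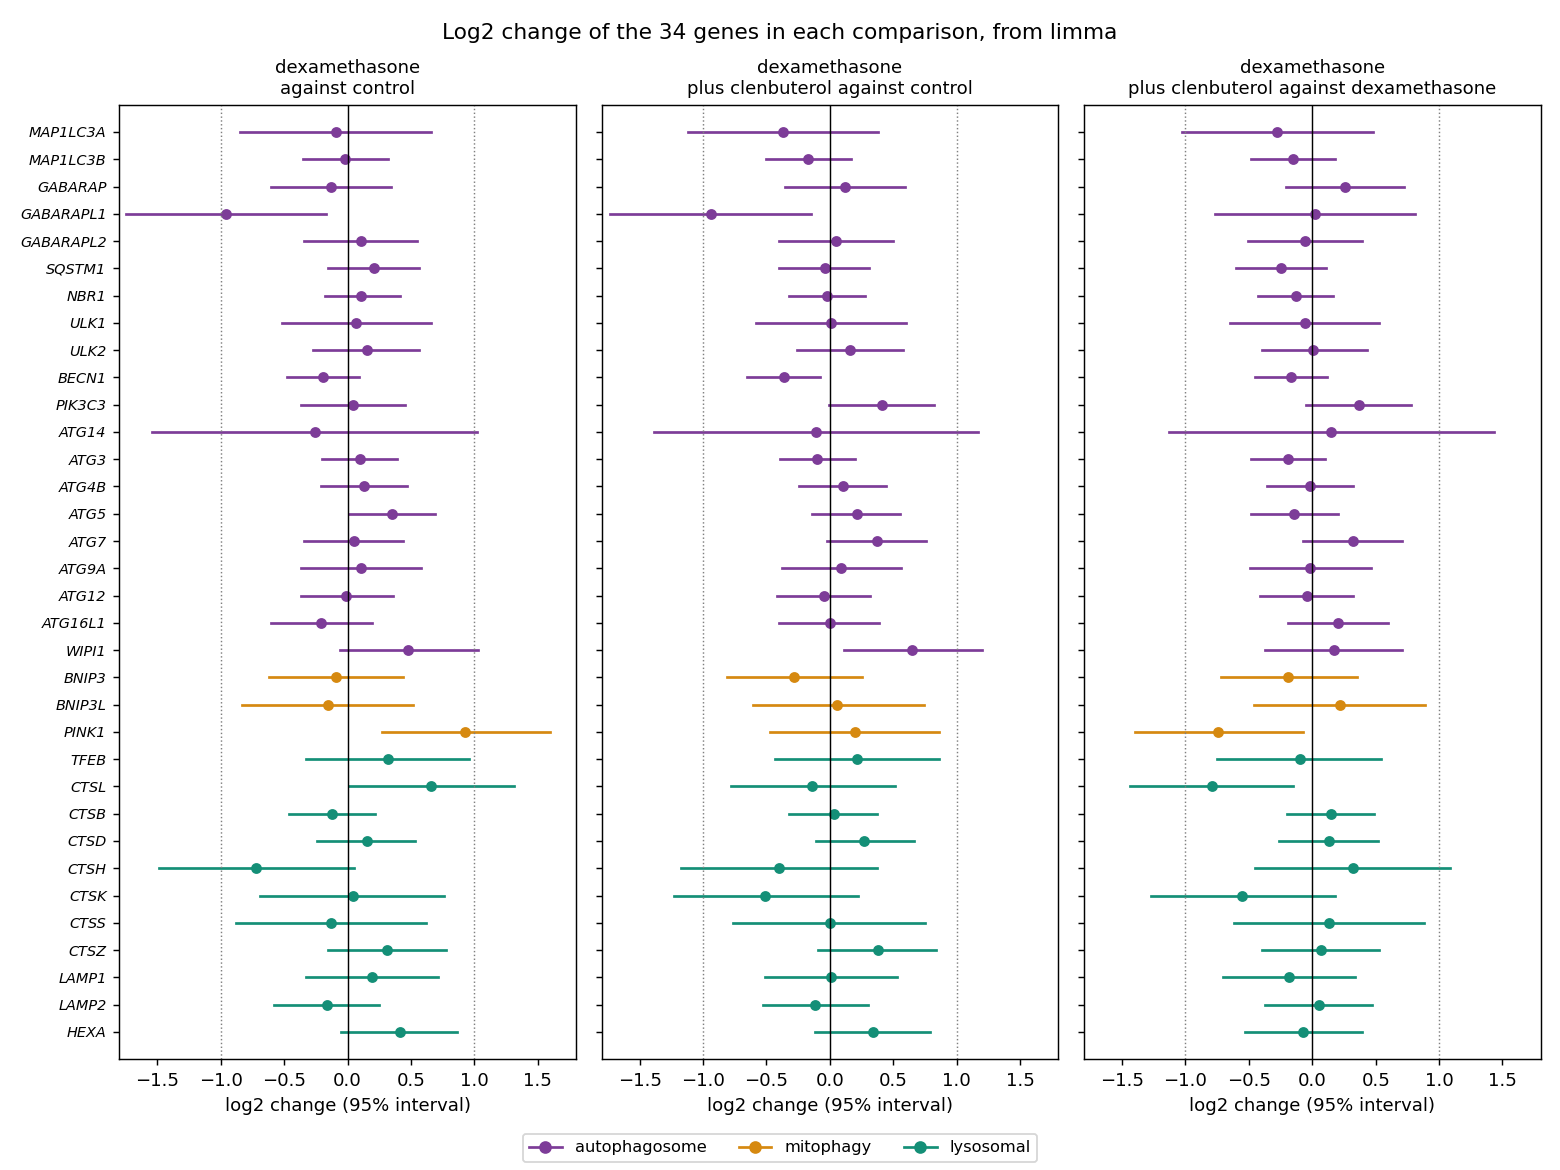
Log2 change (x axis, points) with its 95% interval (lines) from limma for the 34 genes (y axis) in the 3 comparisons, coloured by autophagosome, mitophagy or lysosomal role, with dotted lines at -1 and 1. Most intervals span 0, and GABARAPL1, PINK1, CTSL, WIPI1, BECN1 and ATG5 have an interval clear of 0 in at least 1 comparison before adjustment.

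The values of the 4 animals of a group did not overlap those of the other group in 4 of 34 genes for dexamethasone against control (GABARAPL1, BECN1, PINK1 and CTSL), where 6.44% of all genes were so placed. The same held for 3 genes in the combination against control (BECN1, ATG7 and WIPI1; 8.23% of all genes) and for PINK1 alone in the combination against dexamethasone (5.31% of all genes). As shares of the 34, these were 11.8%, 8.82% and 2.94%. These genes are taken below in the order of their roles.

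Among the LC3 and GABARAP proteins, which sit on the growing sac and bind cargo, GABARAPL1 had the largest differences from control. The controls read 5.04, 5.07, 5.04 and 5.51, in replicate order here and below. The dexamethasone animals read 3.92, 3.51, 4.92 and 4.46, all under the lowest control. The combination animals read 4.47, 4.04, 3.33 and 5.05, with 3 of 4 under the lowest control and the fourth at the level of the controls. GABARAPL1 was thus lower by a log2 change of -0.96 (SE 0.36) with dexamethasone and -0.94 (SE 0.36) with the combination, a fold of 1.95 and 1.92. Both had an unadjusted p under 0.05, but the limma adjusted p was 0.298 and 0.350, so neither was called. The combination differed from dexamethasone by 0.02 (95% interval -0.77 to 0.81). With scan day as a block, which here compares 3 treated arrays with 1 control, the changes were -1.39 and -1.56. Outside day 2, the 1 dexamethasone animal differed from the 3 controls by -0.59 and the 1 combination animal by 0.00.

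The other 4 genes of this family had no unadjusted p under 0.05 in any comparison. MAP1LC3A, an LC3 protein, read 2.04, 2.27, 1.96 and 2.95 in the controls. In the dexamethasone group it read 1.25, 2.48, 2.53 and 2.60, so 1 animal lay far below the other 3. The combination animals read 2.37, 1.26, 1.89 and 2.22, within the range that the dexamethasone animals span. The difference of the combination from dexamethasone was -0.28 (SE 0.35, limma adjusted p = 0.820) and became -0.60 (SE 0.29, adjusted p = 0.402) without dexamethasone replicate 1. It was -0.05 without combination replicate 2, -0.17 without dexamethasone replicate 3 and -0.15 without dexamethasone replicate 4. MAP1LC3B, the form most used as a marker of autophagy, was among the steadiest genes, with group means of 4.74 ± 0.22 in the controls, 4.72 ± 0.19 with dexamethasone and 4.57 ± 0.07 with the combination (SD, n = 4 each). GABARAP and GABARAPL2 had log2 changes between -0.13 and 0.26 over the 3 comparisons. Without dexamethasone replicate 1, the change with dexamethasone turned direction in MAP1LC3A (from -0.09 to 0.23), GABARAP (from -0.13 to 0.08) and GABARAPL2 (from 0.11 to -0.05).

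The cargo receptors SQSTM1 and NBR1, which bind ubiquitin-tagged cargo, and the initiating kinases ULK1 and ULK2 had log2 changes between -0.25 and 0.21 over the 3 comparisons. SQSTM1 averaged 5.41 ± 0.20 in the controls, 5.62 ± 0.08 with dexamethasone and 5.37 ± 0.26 with the combination (SD, n = 4 each). ULK1, the kinase that starts the sac, averaged 2.57 ± 0.36, 2.64 ± 0.42 and 2.58 ± 0.42 in the same order, and its change with dexamethasone of 0.07 was 0.24 without dexamethasone replicate 1. These near-equal ULK1 means hide opposite differences by scan day. Within day 2, which held 1 control, ULK1 differed from control by -0.59 with dexamethasone and -0.70 with the combination. Outside that day the differences were 0.61 and 0.70. ATG9A, the membrane protein whose vesicles feed the sac, differed from control by 0.11 (SE 0.22) and 0.09 (SE 0.22), the first becoming 0.29 (SE 0.19) without dexamethasone replicate 1.

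BECN1, the scaffold of the lipid kinase complex, had the smallest spread between animals of the 34 genes, with an SD within groups of 0.11. The controls read 2.14, 2.05, 2.19 and 2.01, and the dexamethasone animals 1.85, 1.98, 1.79 and 2.00. The combination animals read 1.81, 1.58, 1.68 and 1.88. All 8 treated animals thus lay below the lowest control, the closest by 0.01. The log2 change was -0.36 (SE 0.13) with the combination, with a limma adjusted p of 0.324 and an unadjusted p under 0.05, and -0.19 (SE 0.13, adjusted p = 0.596) with dexamethasone. With scan day as a block the change with the combination was -0.32 (SE 0.22).

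WIPI1, which binds the lipid that this complex makes, lay on the other side of control. It read 3.27, 2.68, 3.70 and 3.71 in the controls and 3.85, 3.79, 4.18 and 3.48 in the dexamethasone animals. The combination animals read 3.80, 4.11, 3.73 and 4.34, all above the highest control. The log2 change was 0.65 (SE 0.25, limma adjusted p = 0.348) with the combination and 0.48 (SE 0.25, adjusted p = 0.461) with dexamethasone. Without control replicate 2, the lowest of the 12 animals, these changes were 0.43 and 0.26. With scan day as a block the change was 0.17 (SE 0.38) with the combination and 0.23 (SE 0.38) with dexamethasone, and outside day 2 that of the 1 combination animal was 1.13.

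PIK3C3, the lipid kinase itself, read -0.76, -0.78, -0.50 and -0.05 in the controls and -0.67, -0.39, -0.49 and -0.38 in the dexamethasone animals. In the combination group it read -0.40, -0.14, -0.10 and 0.18, so 3 of 4 animals lay above every dexamethasone animal. The difference of the combination from dexamethasone was 0.37 (SE 0.19, limma adjusted p = 0.521). ATG14, which steers the complex to the sac, was dim, with a signal well above background on 3 control, 2 dexamethasone and 2 combination arrays. Its spread was the widest of the 34 genes (SD within groups 0.95), and its interval in dexamethasone against control ran from -1.54 to 1.02 around a change of -0.26, which was 0.04 without dexamethasone replicate 1.

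The 6 genes of the conjugation machinery, which attach LC3 and GABARAP proteins to the membrane, all had intervals within a log2 change of 1 in every comparison. ATG5, part of the complex that places LC3, read -0.96, -1.47, -1.16 and -1.41 in the controls. It read -0.64, -0.88, -1.11 and -0.98 in the dexamethasone animals, with 2 of 4 above the highest control, and -1.03, -1.10, -1.06 and -0.99 in the combination animals. The log2 change with dexamethasone was 0.35 (SE 0.16, limma adjusted p = 0.392). A second ATG5 probe gave 0.11 (SE 0.18), scan day as a block gave 0.53 (SE 0.28), and without dexamethasone replicate 1 the change was 0.26 (SE 0.16). ATG7, the enzyme that activates both conjugation routes, averaged -3.12 ± 0.22 in the controls, -3.07 ± 0.30 with dexamethasone and -2.75 ± 0.13 with the combination (SD, n = 4 each). All 4 combination animals lay above the controls, the lowest at -2.86 beside a highest control of -2.91. The log2 change of ATG7 with the combination was 0.37 (SE 0.18, limma adjusted p = 0.435), with 0.19 within scan day 2 and 0.34 outside it. ATG3, ATG4B, ATG12 and ATG16L1 had changes between -0.21 and 0.20.

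**Figure D2:**
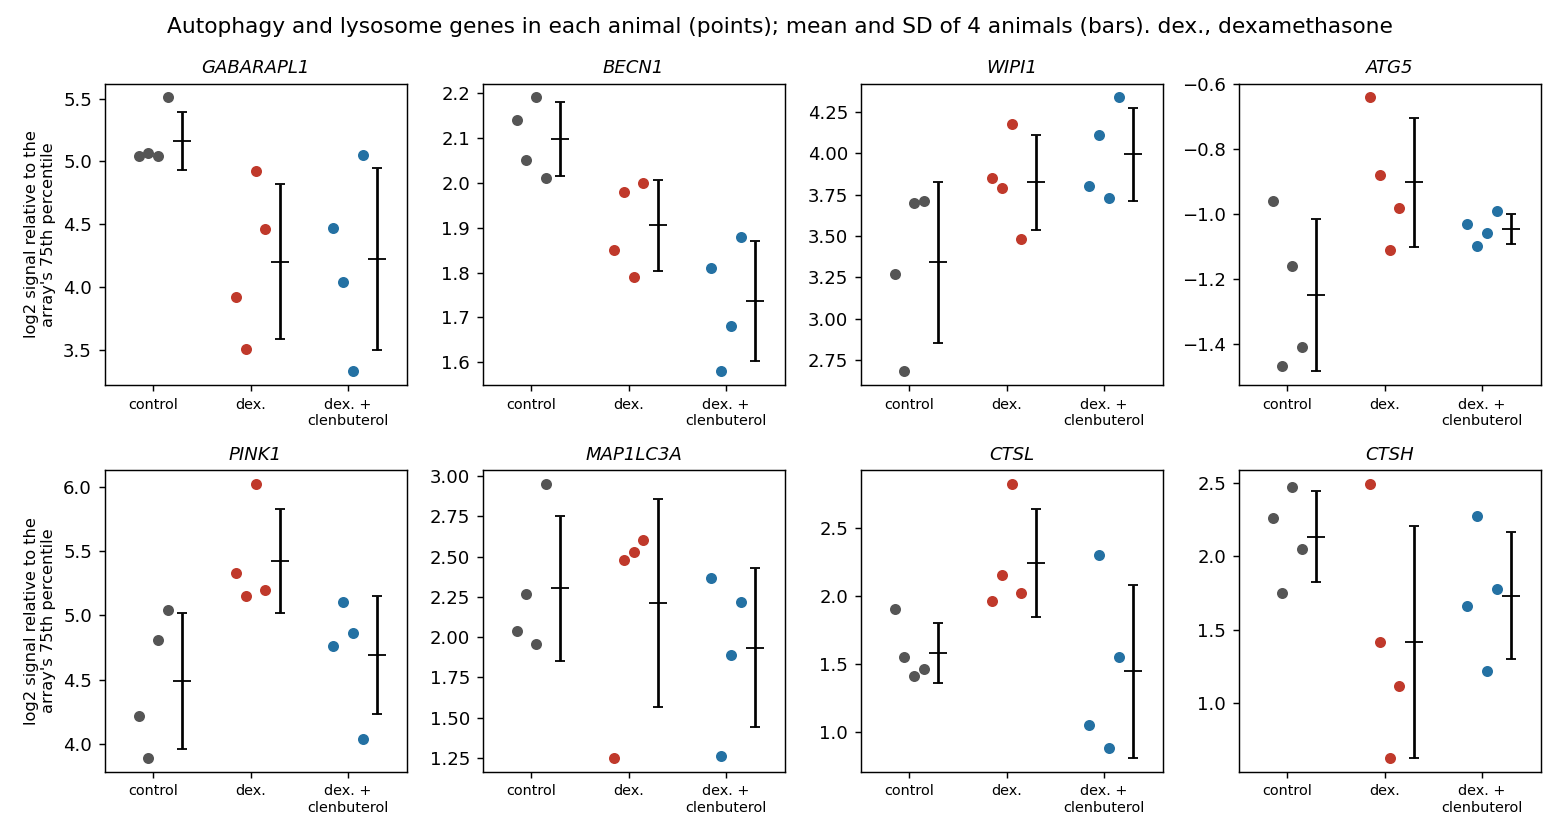
Log2 signal relative to the array's 75th percentile (y axis) of 8 genes in each of the 12 animals (points) by group, with the mean and SD of 4 animals (bars). GABARAPL1 and BECN1 have all 4 dexamethasone animals under the lowest control, and PINK1 and CTSL have all 4 above the highest. In MAP1LC3A 1 dexamethasone animal stands apart, and in CTSH 3 of 4 dexamethasone animals lie under the lowest control.

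Of the 3 mitophagy genes, PINK1, the kinase that marks damaged mitochondria, had the smallest p of the 34 genes. The controls read 4.22, 3.89, 4.81 and 5.04, and the dexamethasone animals 5.33, 5.15, 6.02 and 5.20. All 4 dexamethasone animals lay above both the controls and the combination animals, which read 4.76, 5.10, 4.86 and 4.04. The log2 change with dexamethasone was 0.93 (SE 0.31), a fold of 1.91, with a limma adjusted p of 0.226. The combination differed from dexamethasone by -0.74 (SE 0.31, limma adjusted p = 0.405) and from control by 0.20 (SE 0.31). A second PINK1 probe gave 0.98 (SE 0.40) for dexamethasone against control and -0.54 (SE 0.40) for the combination against dexamethasone. With scan day as a block, the change with dexamethasone was 0.46 (SE 0.42) and the combination against dexamethasone gave -0.59 (SE 0.30). The combination against control was 0.44 (SE 0.40) by the second probe, but turned to -0.14 with scan day as a block and to -0.12 with day 2 against all other days as a block. It was 0.00 without control replicate 2, and with any other single array left out it stayed between 0.06 and 0.42.

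BNIP3 and BNIP3L, mitochondrial receptors that bind LC3 and GABARAP proteins directly, had changes of -0.28 to 0.22. BNIP3 read 4.08, 3.49, 4.35 and 4.72 in the controls, 3.90, 3.94, 4.29 and 4.15 with dexamethasone and 3.50, 4.10, 3.85 and 4.08 with the combination. Its change with the combination was -0.28 (SE 0.24, limma adjusted p = 0.671), which became -0.50 without control replicate 2, -0.09 without control replicate 4 and -0.15 without combination replicate 1. It was -0.90 (SE 0.37) with scan day as a block and -0.08 (SE 0.29) by a second probe. BNIP3L read 0.51, 0.21, 0.25 and -0.42 in the controls and 0.87, -0.52, 0.18 and -0.58 with dexamethasone, so the treated animals spread beyond the controls on both sides. In the combination group it read -0.06, 0.16, 0.22 and 0.48. Its change was -0.15 (SE 0.31, limma adjusted p = 0.893) with dexamethasone, and the combination differed from dexamethasone by 0.22 (SE 0.31, adjusted p = 0.848). Without dexamethasone replicate 1 these became -0.45 (SE 0.26) and 0.51 (SE 0.26). Without dexamethasone replicate 2 they were 0.02 and 0.05, and without dexamethasone replicate 4 they were 0.04 and 0.03. Both turned direction with scan day as a block, to 0.59 and -0.06.

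Among the lysosomal genes, the cathepsins did not share a direction. With dexamethasone 4 of 7 lay above control and 3 below, with a median change of 0.04, and with the combination 3 lay above and 4 below or at control, with a median of 0.00. CTSL, a cysteine protease, is a gene whose name is uncertain here: its probe carries the name CTSL in the array files, while the RefSeq table now gives its accession to CTSV, a close relative. The probe that the table gives to CTSL was well above background on 2 of 12 arrays and was not used. The controls read 1.90, 1.55, 1.41 and 1.46 and the dexamethasone animals 1.96, 2.15, 2.82 and 2.02, all above the highest control. The combination animals read 1.05, 2.30, 0.88 and 1.55, with 3 of 4 below every dexamethasone animal. The log2 change was 0.66 (SE 0.30, limma adjusted p = 0.395) with dexamethasone. The combination differed from dexamethasone by -0.79 (SE 0.30, limma adjusted p = 0.358) and from control by -0.14 (SE 0.30). With scan day as a block the differences were 0.85 (SE 0.54) and -0.90 (SE 0.38).

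CTSH, a cathepsin that acts as an aminopeptidase, lay below the lowest control in 3 of 4 dexamethasone animals. It read 2.26, 1.75, 2.47 and 2.05 in the controls, 2.49, 1.42, 0.63 and 1.12 with dexamethasone and 1.66, 2.27, 1.22 and 1.78 with the combination. The log2 change with dexamethasone was -0.72 (SE 0.35, limma adjusted p = 0.439). Without dexamethasone replicate 1 it was -1.08 (SE 0.28, limma adjusted p = 0.0805), and without dexamethasone replicate 3 it was -0.46. The combination differed from dexamethasone by 0.32 (SE 0.35), which became 0.68 (SE 0.28) without dexamethasone replicate 1 and 0.06 without dexamethasone replicate 3, and ran from 0.14 to 0.49 with combination replicate 2 or 3 left out. Among the dexamethasone animals, replicate 1 had the highest CTSH and the highest mean of macrophage markers (-1.32). Replicate 3 had the lowest of both, with a marker mean of -4.08, under the lowest signal well above background on its array (-3.88). The other groups matched at 1 end only. In the combination group replicate 3 was lowest in both (1.22 and -3.02). The highest CTSH there was in replicate 2 and the highest mean in replicate 4. In the controls replicate 3 was highest in both (2.47 and -1.52). The lowest CTSH there was in replicate 2 and the lowest mean in replicate 4. The match among dexamethasone animals was not particular to macrophage markers. The mean of leukocyte markers was also highest in replicate 1 (-2.11) and lowest in replicate 3 (-4.12). That of fibroblast markers was highest in replicate 1 (1.33) and lowest in replicate 4 (-0.67). Muscle fibre markers were lowest in replicate 1 (6.80), and endothelial markers highest in replicate 3 (-0.39).

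CTSS, the cathepsin of antigen-presenting cells, had the same outer animals among the dexamethasone group: 0.46 in replicate 1 and -1.26 in replicate 3, with -1.18 and -0.61 in the other two. Its group means were -0.52 ± 0.35 in the controls, -0.65 ± 0.79 with dexamethasone and -0.52 ± 0.34 with the combination (SD, n = 4 each). Without dexamethasone replicate 1, CTSS differed from control by -0.50 (SE 0.25, limma adjusted p = 0.355) in place of -0.13. Leaving out replicate 2 or 3, which read lowest, moves the change upward instead. The difference was 0.17 within scan day 2 and -0.20 outside it. The macrophage markers as a list had a median log2 change of -1.53 with dexamethasone and -1.33 with the combination. Of the 13 measured, 7 had an unadjusted limma p under 0.05 in the first comparison and 6 in the second, all lower, and 1 (LYVE1) was called, with dexamethasone. Of these 13, 5 were well above background on all 12 arrays, and 3 more of the 16 listed (ADGRE1, MARCO and SIGLEC1) had no probe that passed the filter. Leukocyte markers (10 measured) had medians of -0.93 and -0.28 and fibroblast markers (12 measured) of -1.19 and -0.38. The part of these cells in the cathepsin values was not tested.

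CTSK, a collagen-degrading cathepsin, read -0.19, -0.59, -0.70 and -1.26 in the controls and -0.81, -0.83, -0.64 and -0.31 with dexamethasone. The combination animals formed a low pair and a high pair, at -1.83, -0.60, -1.82 and -0.52. The log2 change with the combination was -0.51 (SE 0.33, limma adjusted p = 0.554), and it became -0.29 without combination replicate 1, -0.30 without combination replicate 3 and -0.34 without control replicate 1. With scan day as a block it was -0.16 (SE 0.46). CTSZ, an exopeptidase, read 1.63, 1.82, 2.04 and 2.00 in the controls, 2.75, 2.09, 2.24 and 1.65 with dexamethasone and 2.27, 2.36, 2.01 and 2.35 with the combination. Its change with the combination was 0.38 (SE 0.21, limma adjusted p = 0.497), with 3 of 4 animals above the highest control, and 0.22 (SE 0.31) with scan day as a block. With dexamethasone the CTSZ change was 0.31, or 0.12 (SE 0.18) without dexamethasone replicate 1. CTSB and CTSD, the main cysteine and aspartic proteases of the lysosome, had changes between -0.12 and 0.27. CTSB averaged 3.79 ± 0.18 in the controls, 3.67 ± 0.15 with dexamethasone and 3.82 ± 0.21 with the combination, and CTSD averaged 4.82 ± 0.12, 4.96 ± 0.15 and 5.09 ± 0.34 (SD, n = 4 each).

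**Figure D3:**
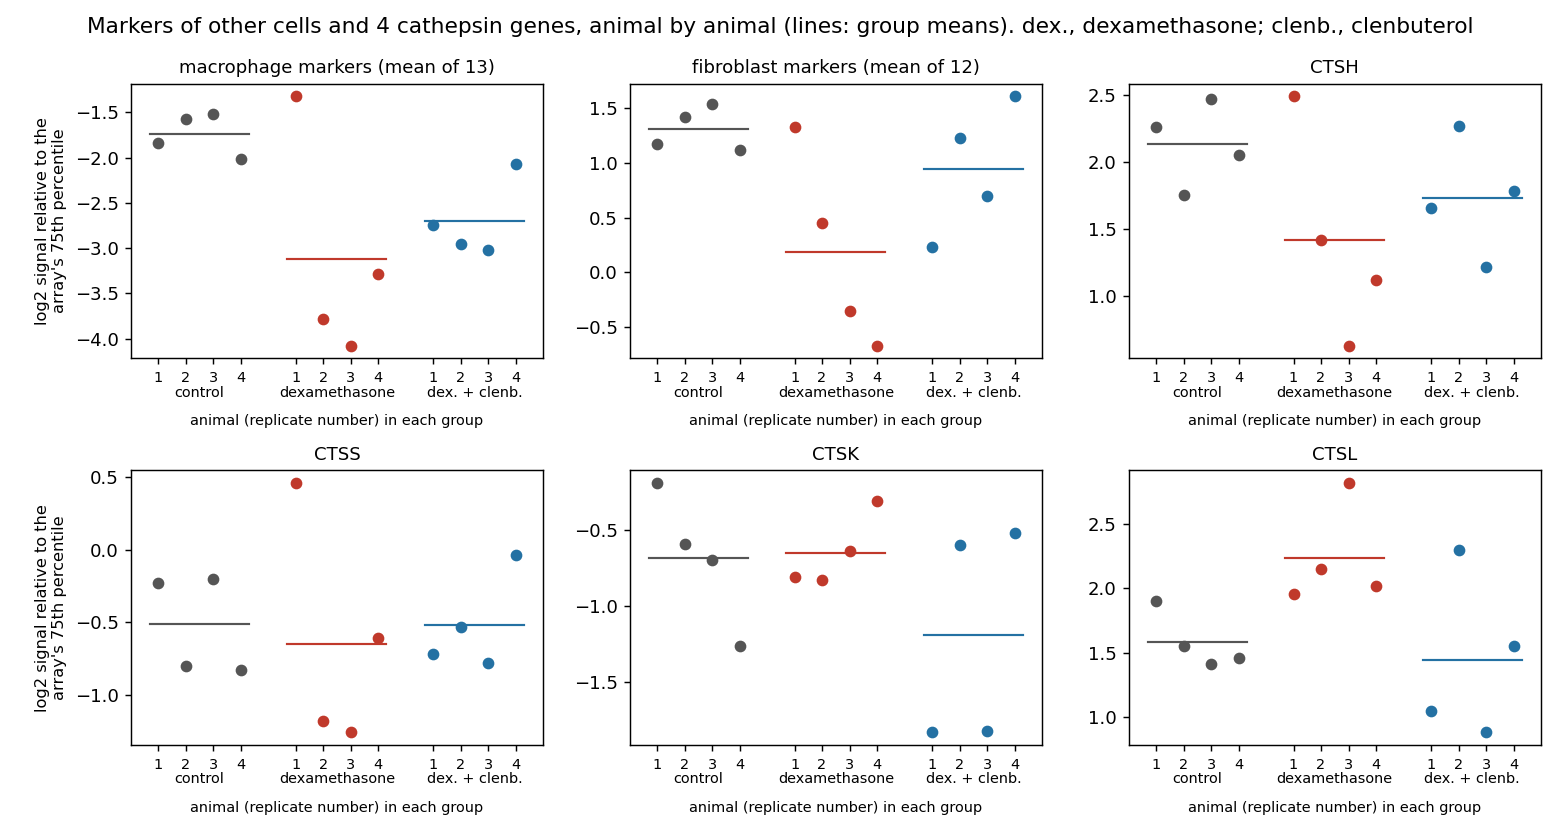
Log2 signal relative to the array's 75th percentile (y axis) in each animal (points, by replicate number) and group mean (lines) for the mean of 13 macrophage markers, the mean of 12 fibroblast markers and 4 cathepsin genes. Dexamethasone replicate 1 is at -1.32 in the macrophage markers and at 2.49 in CTSH, while the other 3 animals of its group lie at -3.29 or below and at 1.42 or below.

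TFEB, the transcription factor that drives lysosomal genes, differed from control by 0.32 (SE 0.30) with dexamethasone and 0.21 (SE 0.30) with the combination. Its dexamethasone animals read -3.06, -1.76, -1.57 and -2.37, and without the first of them the change was 0.61 (SE 0.24, limma adjusted p = 0.252). Leaving out replicate 2 or 3, which read highest, lowers the change instead. The difference was 0.19 within scan day 2 and 0.20 outside it. LAMP1 and LAMP2, glycoproteins of the lysosomal membrane, had changes between -0.18 and 0.19. HEXA, a glycosidase that degrades gangliosides, averaged -1.65 ± 0.22 in the controls, -1.25 ± 0.41 with dexamethasone and -1.32 ± 0.19 with the combination (SD, n = 4 each). Its change with dexamethasone was 0.41 (SE 0.21, limma adjusted p = 0.461), and the difference was 0.02 within scan day 2 and 0.98 outside it.

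The SD between animals of a group had a median of 0.29 over the 34 genes, beside 0.35 for all genes, and single genes lay on both sides. BECN1, ATG3 and NBR1 lay at the 0.673, 1.14 and 1.88 percentiles of all genes by this SD, and ATG14 at the 96.2 percentile. GABARAPL1, CTSH, MAP1LC3A and CTSS followed ATG14, with SDs of 0.54 to 0.56. Dexamethasone replicate 1 held the highest value of the 12 animals for 9 genes and the lowest for 6, and control replicate 2 the lowest for 9. Averaged over the 34 genes, each animal's deviation from the mean of all 12 lay between -0.16 and 0.09.

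**Figure D4:**
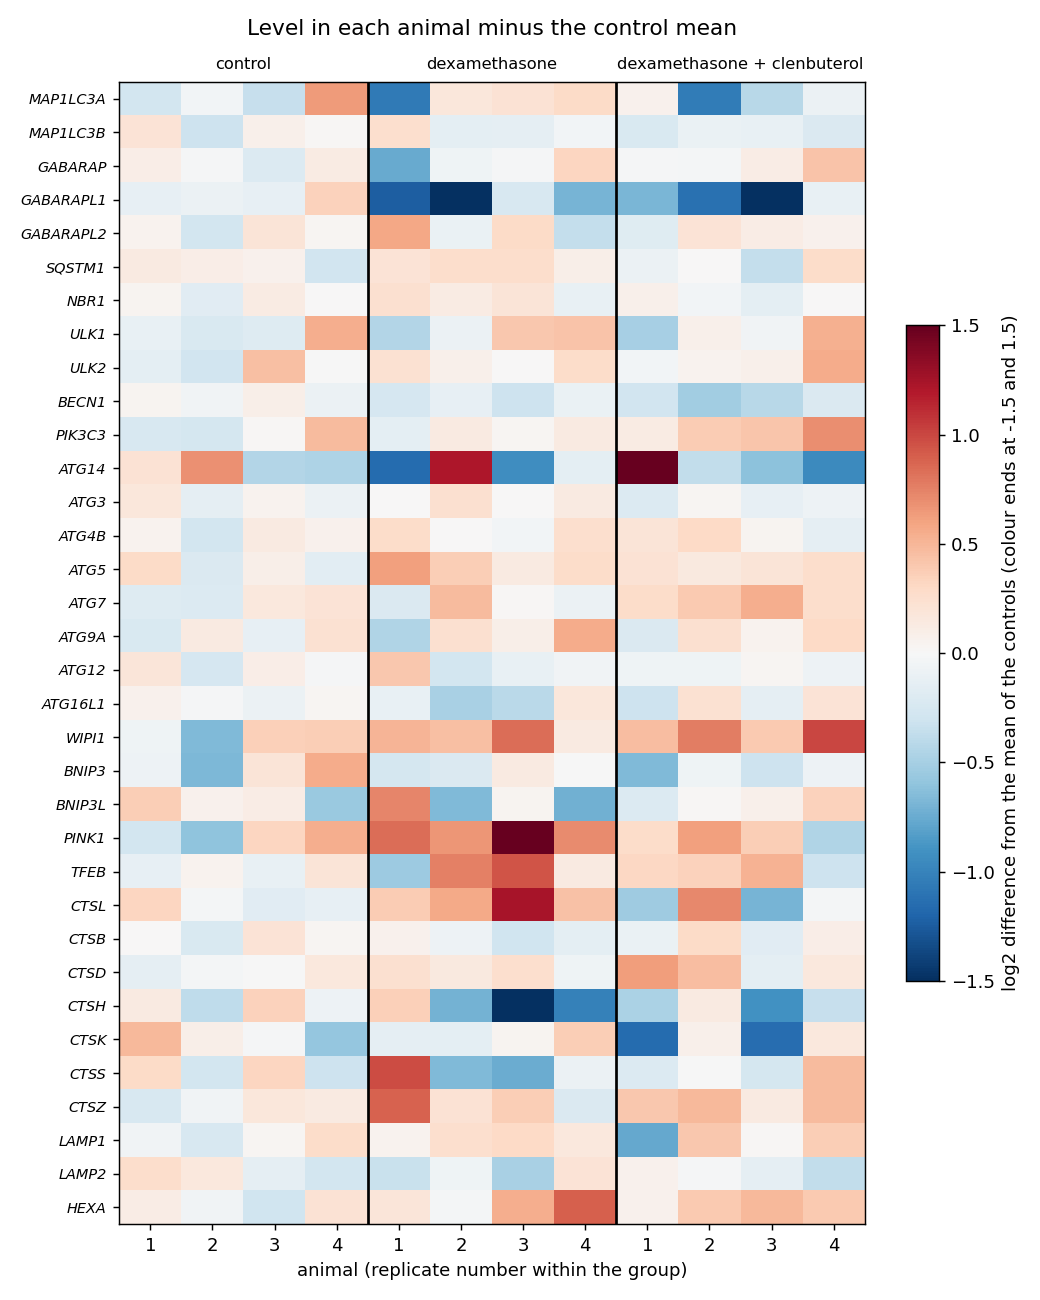
Level of the 34 genes (rows) in each of the 12 animals (columns) minus the mean of the controls, as a log2 difference on a colour scale from -1.5 to 1.5. GABARAPL1 and BECN1 lie below the control mean (blue) in all 8 treated animals, and PINK1 lies above it (red) in all 4 dexamethasone animals.

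A wider set of 168 further genes of the route was listed, of which 145 were measured, and limma called 0 of them in any comparison. At an unadjusted p under 0.05, limma counted 9 higher and 8 lower with dexamethasone, 6 higher and 4 lower with the combination, and 4 higher and 9 lower for the combination against dexamethasone. These were 11.7%, 6.9% and 8.97% of the 145 genes, each below the share of all genes given above (12.3%, 12.1% and 11%). Their median log2 changes were 0.08, 0.01 and -0.03, beside 0.03, 0.03 and 0.02 for all genes. By list, dexamethasone against control gave 2 higher and 2 lower of 32 other autophagosome genes, 1 and 0 of 18 mitophagy genes, 2 and 3 of 36 lysosomal hydrolases, 1 and 2 of 24 lysosomal membrane genes, 1 and 0 of 18 subunits of the proton pump, and 2 and 1 of 17 regulators. The combination against control gave 3 and 2, 0 and 0, 2 and 1, 1 and 0, 0 and 0, and 0 and 1 in the same order. The combination against dexamethasone gave 1 and 1, 0 and 1, 2 and 1, 0 and 0, 0 and 4, and 1 and 2. The subunits of the V-ATPase, the pump that acidifies the lysosome, had a median of 0.17 for dexamethasone against control, -0.02 for the combination against control and -0.29 for the combination against dexamethasone. In the last, 12 of 18 lay below 0, as did 6512 of all 13662 genes, and the 4 with an unadjusted p under 0.05 were 22.2% of the 18, with none called.

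Named by the smallest p in each comparison, FOXO3, a transcription factor that drives autophagy genes in muscle, read 3.35, 3.09, 2.95 and 3.06 in the controls. It read 2.59, 2.27, 2.32 and 2.04 with dexamethasone, all below every other animal, and 3.24, 3.02, 2.74 and 3.26 with the combination. Its log2 change was -0.81 (SE 0.17, limma adjusted p = 0.0682) with dexamethasone, and the combination lay above dexamethasone by 0.76 (SE 0.17, adjusted p = 0.162). TP53INP2, which moves from the nucleus to bind LC3 proteins on the sac, read 4.91, 5.12, 5.95 and 5.90 with dexamethasone and 3.56, 4.46, 3.81 and 4.60 with the combination. These groups did not overlap, with a log2 change of -1.36 (SE 0.33, limma adjusted p = 0.172). The controls read 4.55, 4.32, 5.18 and 5.30 and overlapped both groups. Its relative TP53INP1 had changes of -0.94 (SE 0.25, adjusted p = 0.132) with dexamethasone and -0.70 (SE 0.25, adjusted p = 0.324) with the combination. The controls read 1.23, 0.92, 0.45 and 0.16 for TP53INP1, and the last was the control scanned on day 2. On that day dexamethasone replicates 1 to 3 read 0.03, -0.56 and -0.58, and combination replicates 1 to 3 read -0.24, -0.15 and 0.15. Changes with scan day as a block are not given for these further genes.

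FLCN, which regulates growth signalling at the lysosome, had a change of 0.63 (SE 0.17, limma adjusted p = 0.132) with dexamethasone. OPTN, a receptor for mitochondria and bacteria, read 3.32, 3.46, 4.07 and 4.18 in the controls and 4.38, 4.57, 4.55 and 4.77 with the combination, a change of 0.81 (SE 0.25, adjusted p = 0.265). Within scan day 2 the values lay closer, at 4.18 in the 1 control and 4.38, 4.57 and 4.55 in combination replicates 1 to 3. TPP1, a lysosomal peptidase, had the smallest p in the combination against control, with a change of 1.41 (SE 0.37, adjusted p = 0.215). Its probe was well above background on 1 control, 1 dexamethasone and 3 combination arrays, so it passed the filter through the combination group. Control replicates 1, 2 and 4 read -6.25, -6.52 and -6.01. These lie under the lowest signal well above background on their arrays (-5.76, -5.52 and -4.40), so the size of the change is not measured. IDUA, a hydrolase of glycosaminoglycans, lay 0.39 (SE 0.13, adjusted p = 0.290) higher with the combination than with dexamethasone.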

How the data were processed

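Total RNA of biceps brachii from 12 bulls was hybridised to 1-colour Agilent bovine arrays. The deposited scanner files hold spot intensity on a linear scale, from Agilent Feature Extraction 9.5.1.1 per the file headers. The value table the authors deposited holds intensity that ranks spots as the scanner signal does. Its column medians run from 137.25 to 181.167, so its values are neither logged nor centred. Ranks alone do not show that the scale is linear, and no source used here gives the steps behind the table. It served as an alternative.

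Log2 of the processed signal minus each array's 75th percentile was taken, spots that the scanner software marked as outliers (1 to 7 per array) were dropped, and a probe's remaining spots were averaged. Of 21475 probes, 14703 were well above background on at least 4 of 12 arrays, and the brightest per gene was kept. Names came through gene number (9989 probes), accession (3410), symbol (383) or human match (3633) and a RefSeq table of assembly ARS-UCD2.0, and 4060 kept the file's name. No coordinates are given, since the array names no build.

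The test was limma 3.58.1 under R 4.3.3 (lmFit with 3 group means on all 12 arrays, eBayes; two-sided, Benjamini-Hochberg within each comparison). The fit was tested on simulated data for dexamethasone against control, in 10 simulations. At an adjusted p under 0.05 it recovered 45.2% of planted log2 changes of 1 and 85.7% of those of 2. Many changes near 2-fold would thus be missed. Alternatives were background correction, scaling, filter, probe choice, weights, scan and slide blocks, and each array left out.

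The members, the further gene lists and the marker lists were chosen with earlier results of these data known. Full values go to genes with an unadjusted p under 0.05 (at most 6 per comparison) and to the largest rise and fall per subgroup and comparison; further genes are named by the 3 smallest p. Medians of the remaining marker lists for the 3 comparisons were 0.04, 0.11 and -0.01 in muscle fibre, 0.11, 0.30 and 0.18 in endothelium, 0.22, 0.51 and 0.26 in smooth muscle and pericytes, 0.29, 0.27 and -0.11 in adipocytes (4 genes) and 0.11, 0.46 and 0.20 in red cells (3 genes).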

Additional observations from a re-analysis of the deposited data

Results flagged for a closer look

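In 5 of 102 groups of 4 animals checked over the 34 genes, 1 animal lay far from the other 3, and chance alone gives about 5.1 such groups (1 in 20). MAP1LC3A was at 1.25 in dexamethasone replicate 1, with the others of its group between 2.48 and 2.60. In control replicate 4, GABARAPL1 was at 5.51 (others 5.04 to 5.07), ULK1 at 3.11 (others 2.34 to 2.46) and SQSTM1 at 5.12 (others 5.48 to 5.54); this is the control scanned on day 2 with most of the treated arrays, and the part of scan day was not tested. ATG12 was at 0.08 in combination replicate 3, with the others between -0.03 and -0.01.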

How the results depend on the processing

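Under each of 25 alternatives, 0 of the 34 genes were called in any comparison by limma, with the smallest adjusted p between 0.0693 and 0.552, 0.107 and 0.634, and 0.146 and 0.621 in the 3 comparisons. The median change of the 34 genes ran from 0.00 to 0.12, -0.03 to 0.09 and -0.09 to 0.03, and genes at an unadjusted p under 0.05 numbered 1 to 5, 0 to 6 and 0 to 3. The latter count was 0 with day 2 against all other days as a block and without combination replicate 2 in the combination against control, and without dexamethasone replicate 3 in the combination against dexamethasone. Of 505 alternative values of the 20 changes described in full, 498 kept their direction and 7, in 3 changes, did not. BNIP3L in dexamethasone against control was 0.59 with scan day as a block and ran from -0.45 to 0.04 with 1 array left out; in the combination against dexamethasone it was -0.06 with scan day as a block. PINK1 in the combination against control was -0.12 with day 2 against all other days as a block, -0.14 with scan day as a block, and ran from 0.00 to 0.42 with 1 array left out; the cause was not tested. The number of all genes called, 84 in dexamethasone against control, was 13 with day 2 as a block, 0 with scan day as a block (fewer arrays compared), 25 without the filter, 286 with array weights, 24 without control replicate 1 and 261 without dexamethasone replicate 1; it was 6 in the combination against control (0 to 128) and 2 in the combination against dexamethasone (0 to 74). Leaving out the filter moved the median of all genes to 0.14 and 0.11 in the comparisons with control. No paired analysis was possible because the labels carry no replicate numbers shared between groups. The number of arrays limits the precision; signals of ATG14 near background limit it further.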
